A study of Mus musculus with 13 samples.

Results

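Monocytes are drawn to and kept in tissue by 2 kinds of secreted signal, the ligands of the CSF1 receptor and a set of chemokines. The 8 genes described here were listed by symbol for that shared role, with no threshold on a measured value, although earlier results of these data were known when the list was drawn up: Csf1 and Il34, which encode the ligands of the CSF1 receptor, the CC chemokines Ccl2, Ccl5, Ccl7, Ccl8 and Ccl9, and the membrane-bound chemokine Cx3cl1. All 8 are among the 57010 genes of the deposited tables. Of these, 6 passed the filter on low counts and stand among the 15034 genes tested, while Ccl5 and Ccl8 did not.

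RNA was sequenced from wild-type (WT) mouse embryonic fibroblasts (MEFs), primary cells grown from embryos, in 4 groups of 3 mice each. Control MEFs were not made senescent and received no Fucoidan. The other 3 groups were made senescent with etoposide, a topoisomerase poison that breaks DNA, and were then left untreated or given Fucoidan-FV, a sulfated polysaccharide from the brown alga Fucus vesiculosus, at 100 or 300 µg/mL, with RNA taken 12 h into treatment. Mice carry the numbers 4, 5 and 6 in each group, and control mouse 5 has libraries 5(1) and 5(2), which were summed. All groups share the genotype, and no control MEFs treated with Fucoidan-FV are part of the samples, so every effect of the polysaccharide is measured on senescent cells at a single time. Senescence came from a single agent, so its effect and that of etoposide cannot be told apart.

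CSF1 and IL-34 bind the same receptor, CSF1R, and keep monocytes and macrophages alive, dividing and differentiating. Fibroblasts are a well-known source of CSF1. CCL2 and CCL7 (MCP-1 and MCP-3) act through CCR2 and related receptors and pull monocytes out of the bone marrow and the blood. CCL8 (MCP-2) carries the name of the same MCP group. CCL5 (RANTES) and CCL9 share the receptor CCR1. CX3CL1 (fractalkine) is made as a membrane protein that is shed by metalloproteases and holds patrolling monocytes through CX3CR1. CCL2 in particular is a standard component of the senescence-associated secretory phenotype (SASP), the mix of cytokines, proteases and growth factors that senescent cells release.

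The libraries held between 22782536 and 31278750 counts. All 10 fibroblast markers were detected in every group, with a summed level of 31846 CPM (counts divided by the scaled library size) at the lowest, and both senescence genes on the list, Cdkn1a and Cdkn2a, rose in senescent against control MEFs. The libraries differed in composition. Genes that list a single transcript in the annotation, 2067 of those tested, had a median log2 deviation from the mean of all samples whose lowest value was −1.36 (control mouse 6) and whose highest was 0.91 (100 µg/mL, mouse 5), and libraries 5(1) and 5(2) of the same control mouse differed by 1.82 in this median against −0.03 for the 12967 genes listing several transcripts. Values are therefore given mouse by mouse.

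The promoters of Csf1 and Cx3cl1 are printed because they belong to the member that fell under both doses and to a chemokine of the family that was called at neither. Of the 8 members, 4 (Csf1, Cx3cl1, Ccl8 and Ccl9) are in the RefSeq promoter table. Each sequence is the 250 bases before the start, 5′ to 3′ on the gene's strand, from build GRCm38.p6: chr3:107760470-107760719, minus strand, for Csf1 and chr8:94771930-94772179, plus strand, for Cx3cl1. Capitals mark matches on either strand to the κB-like pattern GGGNNNNNCC or to TATAAA.
Csf1: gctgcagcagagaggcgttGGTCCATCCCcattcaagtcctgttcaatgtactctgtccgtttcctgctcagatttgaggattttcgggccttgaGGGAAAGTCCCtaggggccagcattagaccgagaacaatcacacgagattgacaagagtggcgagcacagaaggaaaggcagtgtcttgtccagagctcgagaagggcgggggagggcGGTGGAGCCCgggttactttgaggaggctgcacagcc
Cx3cl1: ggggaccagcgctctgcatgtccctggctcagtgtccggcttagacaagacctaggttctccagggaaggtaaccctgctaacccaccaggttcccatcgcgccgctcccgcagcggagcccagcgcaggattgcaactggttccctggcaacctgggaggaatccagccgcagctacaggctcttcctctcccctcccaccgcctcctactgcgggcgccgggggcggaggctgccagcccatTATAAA
The Csf1 window held 4 matches to the κB-like pattern, of which the pair beginning 155 and 154 bases before the start overlap as GGGAAAGTCCC, and none to TATAAA. The Cx3cl1 window held 1 TATAAA, 6 bases before the start, and no κB-like match. The AP-1 pattern TGANTCA was in neither. Among all 32851 windows of this length, 45.8% held the κB-like pattern, 12.4% TATAAA and 6.75% the AP-1 pattern, so a κB-like match is common and is given as a description of the letters alone. The Ccl8 window held 1 TATAAA and no other match, and the Ccl9 window held 1 κB-like match, 1 AP-1 match and 3 matches to TATAAA.

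Csf1 was by far the most abundant of the 8 and the only one that fell under Fucoidan-FV against untreated senescent MEFs, at both doses. Per length, its level in TPM (the length-normalised unit of RSEM) was 976 ± 139 (SD, n = 3) in control MEFs, 817 ± 235 in senescent MEFs, 369 ± 38.4 at 100 µg/mL and 398 ± 85.0 at 300 µg/mL. The next members by TPM in control MEFs were Ccl2 at 21.0 ± 3.54, Cx3cl1 at 13.4 ± 6.11 and Ccl7 at 12.8 ± 8.60, and these 3 lie within each other's spread. Below them came Il34 at 6.32 ± 2.39 and Ccl9 at 2.43 ± 2.30, with Ccl5 and Ccl8 at 0.210 ± 0.215 and 0.0800 ± 0.139. At 100 µg/mL the mean of Ccl7 was 99.5 ± 51.8 TPM, above that of Ccl2 at 45.6 ± 15.9, and their values overlapped.

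**Figure D1:**
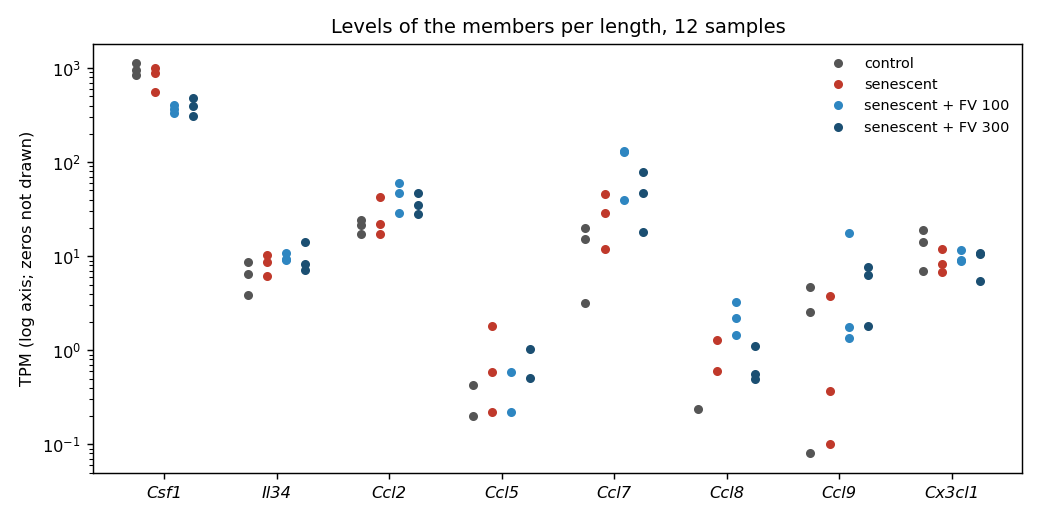
TPM of each member in 12 samples on a log axis, coloured by group, with zeros not drawn. Csf1 lies above 300 TPM in every sample, Ccl2, Ccl7, Il34 and Cx3cl1 lie between 3.15 and 132, and Ccl5 and Ccl8 stay under 4.

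Csf1 (ENSMUSG00000014599) lies on chromosome 3, at 107648364 to 107667806 on the minus strand of GRCm39, and encodes the main growth and survival factor of macrophages. Its level in TMM-scaled CPM was 2415, 2024 and 2193 in control mice 4, 5 and 6 and 1696, 2103 and 1577 in the untreated senescent MEFs of the same mice. It was 625, 552 and 576 at 100 µg/mL and 857, 628 and 557 at 300 µg/mL. All 6 treated samples lay below all 6 untreated ones. On this scale the highest treated value, mouse 4 at 300 µg/mL, was far under the lowest senescent value, that of mouse 6. In TPM these samples lay closer, at 481 and 556.

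Against senescent MEFs, the log2 fold change of Csf1 was −1.62 ± 0.20 (SE) at 100 µg/mL, with an adjusted p of 0.0015 in edgeR's quasi-likelihood test, and −1.40 ± 0.19 at 300 µg/mL, with an adjusted p of 0.0042. These are levels 3.07 and 2.63 times lower. Within each mouse the difference from its own senescent sample was −1.44, −1.93 and −1.45 at 100 µg/mL and −0.99, −1.74 and −1.5 at 300 µg/mL. A gene is called here where its adjusted p is under 0.05 and its log2 fold change exceeds 1 in either direction. Csf1 was the 1 member of 6 called at 100 µg/mL, where 2.69% of all tested genes were called and 1.6% were called lower, and the 1 of 6 called at 300 µg/mL, where these shares were 1.64% and 0.885%. In bulk RNA, fewer cells that make Csf1 and less Csf1 RNA per cell cannot be told apart.

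The fall held under each of the 13 alternatives at each dose. Over them, the log2 fold change ran from −1.67 to −1.34 at 100 µg/mL and from −1.60 to −1.23 at 300 µg/mL, with adjusted p-values of at most 0.0150 and 0.0381 over edgeR and DESeq2 fits. Between the doses Csf1 differed by 0.22 (300 minus 100 µg/mL, 95% confidence interval −0.19 to 0.63, adjusted p 0.97 in edgeR).

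The doses share the senescent samples, so the falls at 100 and 300 µg/mL are not independent of each other. Against control MEFs the log2 fold change of Csf1 was −1.92 at 100 µg/mL (adjusted p 2.56e-05) and −1.70 at 300 µg/mL (6.27e-05). Senescent against control MEFs gave −0.30 (95% confidence interval −0.71 to 0.11, adjusted p 0.36), with overlapping values, lower in 2 of 3 mice. The level of Csf1 in treated senescent cells was thus below that of cells never made senescent.

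The libraries of control mouse 5 differed in Csf1. Library 5(1) held 2780 CPM and library 5(2) 1015 CPM, 2.74 times apart, from counts of 79143 and 23972. Both lie above every treated sample. With 5(1) or 5(2) alone for that mouse, Csf1 was called lower against control MEFs at both doses, as in the sum.

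**Figure D2:**
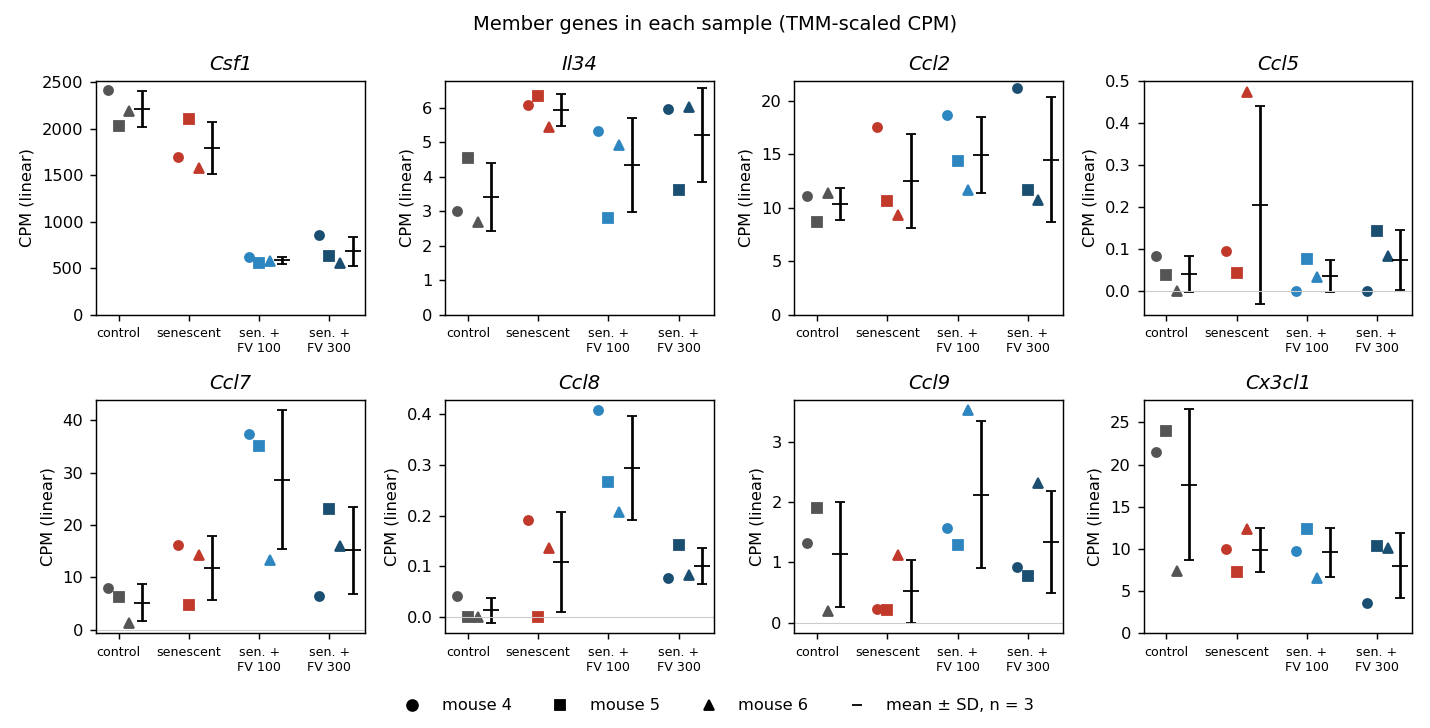
TMM-scaled CPM of the 8 members in each sample on linear axes, by group, with 1 symbol per mouse and the mean ± SD (n = 3) beside it. All 6 treated Csf1 values lie below all 6 untreated ones, while the groups of the other members overlap in most comparisons.

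Il34 (ENSMUSG00000031750, chromosome 8, 111423928 to 111532584, minus strand) encodes the second CSF1R ligand, which is known mainly from skin and brain. It was at 3.02, 4.53 and 2.68 CPM in control mice 4, 5 and 6 and at 6.07, 6.34 and 5.44 in senescent MEFs. At 100 µg/mL it was at 5.32, 2.80 and 4.91, and at 300 µg/mL at 5.97, 3.63 and 6.01. The senescent values lay above all control values, and mouse 5 was the lowest at each dose.

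None of the Il34 differences was called. Senescent against control MEFs gave a log2 fold change of 0.80 ± 0.40 (SE, edgeR adjusted p 0.24), higher in 3 of 3 mice, and the doses gave −0.45 (0.58) and −0.19 (0.88) against senescent MEFs. Il34 was the 1 tested member whose senescent values did not overlap the control values from above, which was so for 14.2% of all genes tested. Its values at 100 µg/mL lay below the senescent ones without overlap, as did those of Csf1, so 2 of 6 members did so where 15% of all genes did. At 300 µg/mL only Csf1 did so among the members tested, where 10.2% of genes did. The CSF1R ligands stood at very different levels per length, with 817 TPM of Csf1 and 8.44 TPM of Il34 on average in senescent MEFs.

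The CCR2 ligands lie close together on chromosome 11. Ccl2 (ENSMUSG00000035385, 81926397 to 81928279, plus strand) ends 8.3 kb before Ccl7 (ENSMUSG00000035373, 81936532 to 81938351, plus strand), and Ccl8 (ENSMUSG00000009185, 82006007 to 82007625, plus strand) follows 67.7 kb farther on. The counts behind them differed: Ccl2 had 242 to 598 per sample, Ccl7 29 to 1197 and Ccl8 0 to 13.

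Ccl2, the monocyte chemoattractant that gives the family its name, was at 11.1, 8.64 and 11.4 CPM in control mice 4, 5 and 6 and at 17.5, 10.6 and 9.38 in senescent MEFs. It was at 18.7, 14.3 and 11.7 at 100 µg/mL and at 21.2, 11.6 and 10.7 at 300 µg/mL. Mouse 4 gave the highest value in each of the 3 senescent groups, and senescent and control values overlapped. Ccl2 was not called in any of the 6 comparisons, nor under any alternative: senescent against control MEFs gave a log2 fold change of 0.27 (95% confidence interval −0.47 to 1.02, edgeR adjusted p 0.70), and the doses gave 0.25 (−0.49 to 1.00, 0.74) and 0.21 (−0.53 to 0.96, 0.85) against senescent MEFs. The senescence-associated increase usual for CCL2 was thus not detectable here, and neither was a fall under Fucoidan-FV.

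Ccl7, which encodes MCP-3, varied widely within groups as well as between them. It was at 8.07, 6.18 and 1.36 CPM in control mice 4, 5 and 6 and at 16.2, 4.83 and 14.3 in senescent MEFs. It was at 37.5, 35.1 and 13.4 at 100 µg/mL and at 6.47, 23.0 and 16.0 at 300 µg/mL. Every value at 100 µg/mL lay above every control value, whereas all other groups overlapped.

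Ccl7 rose at 100 µg/mL against control MEFs, by a log2 fold change of 2.46 ± 0.67 (SE, edgeR adjusted p 0.0156), higher in 3 of 3 mice. With Csf1, 2 of 6 members were called there, where 19.7% of all tested genes were called, 10.3% of them higher and 9.37% lower as shares of all genes tested. Without mouse 4 at 100 µg/mL the change was 2.21 with an adjusted p of 0.0538, so the call was lost in that smaller fit. At 300 µg/mL the change against control was 1.54 (0.105) and 1 of 6 members, Csf1, was called, where 18% of genes were, 9.87% higher and 8.11% lower. Against senescent MEFs Ccl7 gave 1.28 (0.29) and 0.36 (0.86), and senescent against control gave 1.17 (0.29).

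The level of Ccl7 moved with library composition. In library 5(1) of control mouse 5 it was at 2.04 CPM and in 5(2) at 10.9 CPM, from 58 and 257 counts of the same mouse. The 4 libraries whose single-transcript genes had a median deviation below −0.5, which were control mouse 6, library 5(1), senescent mouse 5 and mouse 4 at 300 µg/mL, held 1.36 to 6.46 CPM of Ccl7, and the other 9 held 8.05 to 37.4. Ccl7 itself lists 1 transcript. For Csf1 the 2 sets overlapped, with 854 to 2780 CPM against 550 to 2409, and in each of the 2 groups of senescent cells with such a library, untreated and at 300 µg/mL, it gave the highest Csf1 value.

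Where composition was taken into account, Ccl7 was called more often. With scaling factors computed separately for single-transcript genes, its log2 fold change was 1.12 (edgeR adjusted p 0.022) in senescent against control MEFs, 1.86 at 100 µg/mL and 1.59 (0.0017) at 300 µg/mL against control. With the composition of each sample as a covariate, an alternative added after the data were seen, these were 1.03 (0.0031), 1.57 and 1.48 (1.65e-04). The direction was the same in each, higher in the senescent and treated groups, and neither alternative gave a call against untreated senescent MEFs. What sets the composition of a library was not tested.

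**Figure D3:**
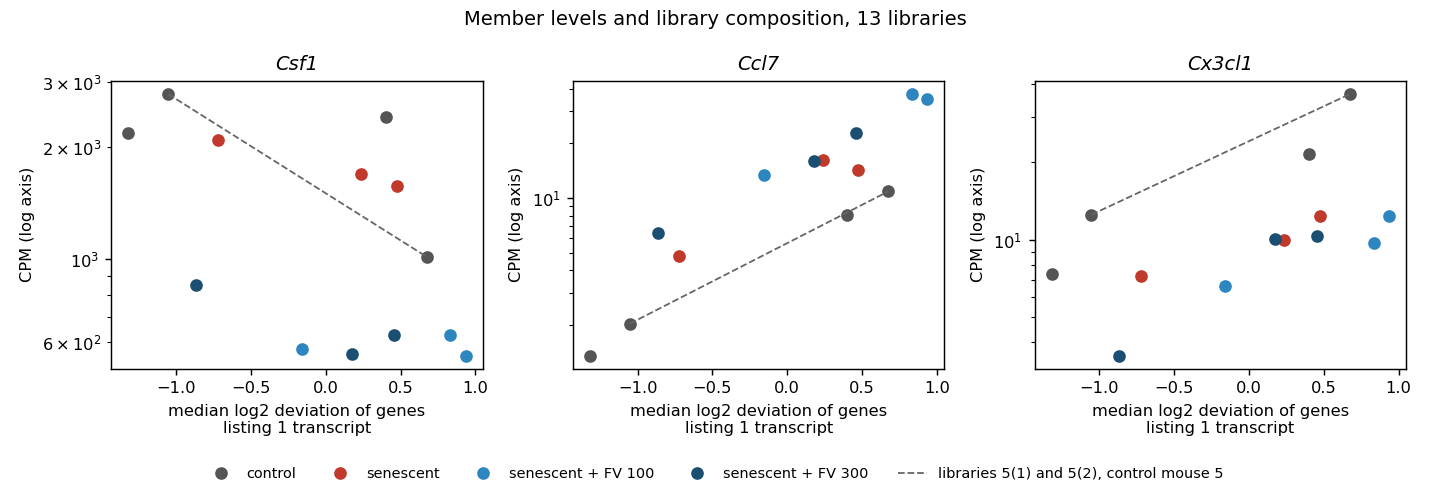
CPM on a log axis of Csf1, Ccl7 and Cx3cl1 in the 13 libraries against the median log2 deviation of single-transcript genes in each library, coloured by group, with the libraries 5(1) and 5(2) of control mouse 5 joined by a dashed line. Ccl7 is lowest in the 4 libraries at the left and 2.04 against 10.9 CPM along the dashed line, while the treated samples lie lowest for Csf1 across the whole axis.

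Ccl8, which encodes MCP-2, was counted 1, 0 and 0 times in control mice 4, 5 and 6 and 6, 0 and 4 times in senescent MEFs. At 100 µg/mL it was counted 13, 7 and 6 times and at 300 µg/mL 2, 4 and 2 times. The values at 100 µg/mL, 0.293 ± 0.103 CPM (SD, n = 3), lay above those of all other groups. It was too low for the test across genes, and an exact two-sided permutation test over the 3 and 3 samples gave p = 0.1 against senescent MEFs, against control MEFs and against 300 µg/mL, the smallest p this design allows (adjusted 0.3 over the 12 tests of Ccl5 and Ccl8). DESeq2, which kept it, gave an adjusted p of 0.0247 at 100 µg/mL against control MEFs, and edgeR without a filter 0.138. The control group held 1 count in all, at which a fold has no firm size.

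Ccl5 and Ccl9, ligands of CCR1, lie 37.8 kb apart in a second group on chromosome 11. Ccl5 (ENSMUSG00000035042, 83416602 to 83425942, minus strand), which in many cells is an interferon and NF-κB target, was counted 0 to 14 times per sample. The 14 counts fell in senescent mouse 6, and the other 11 samples had 4 or fewer. In the 6 comparisons the exact permutation p lay between 0.2 and 0.8, all with overlapping values.

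Ccl9 (ENSMUSG00000019122, 83463745 to 83473161, minus strand), a CCR1 ligand of mice, was at 1.32, 1.90 and 0.188 CPM in control mice 4, 5 and 6 and at 0.224, 0.216 and 1.12 in senescent MEFs. At 100 µg/mL it was at 1.57, 1.29 and 3.53, and at 300 µg/mL at 0.930, 0.782 and 2.32. All 3 values at 100 µg/mL lay above the senescent ones, with a log2 fold change of 2.02 and a 95% confidence interval of −0.01 to 4.04 (edgeR adjusted p 0.25). Without senescent mouse 6 this change was 3.35 (0.15) and without mouse 6 at 100 µg/mL it was 1.44 (0.48). Ccl9 was the 1 tested member whose values at 100 µg/mL all lay above the senescent ones, where 11.2% of all genes tested did. It rested on 4 to 102 counts per sample and stood at 4 counts in library 5(1) against 93 in library 5(2). Over all libraries, the 4 with low composition values held 0.141 to 0.928 CPM and the other 9 held 0.223 to 3.94, with overlap.

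Cx3cl1 (ENSMUSG00000031778, chromosome 8, 95498637 to 95509055, plus strand), the membrane-bound chemokine, was at 21.5, 24.0 and 7.38 CPM in control mice 4, 5 and 6 and at 10.002, 7.24 and 12.4 in senescent MEFs. It was at 9.77, 12.4 and 6.61 at 100 µg/mL and at 3.57, 10.3 and 10.1 at 300 µg/mL. Control mice 4 and 5 stood above all other samples, and control mouse 6 lay among the senescent and treated values.

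The differences of Cx3cl1 were not called. Senescent against control MEFs gave a log2 fold change of −0.83 (edgeR adjusted p 0.31), and the doses gave −0.05 (0.97) and −0.30 (0.84) against senescent MEFs. Against control MEFs they gave −0.88 (0.20) and −1.14 (0.106). Control mouse 6, the library with the lowest composition value, bore on this: without it the change at 300 µg/mL was −1.42 with an adjusted p of 0.0496, and with composition as a covariate the changes against control were −1.47 (8.31e-04) at 100 µg/mL and −1.25 (0.0013) at 300 µg/mL. With the same covariate, senescent against control MEFs gave −0.91 (edgeR adjusted p 0.0132), lower by less than the size a call requires. Cx3cl1 was at 12.5 CPM in library 5(1) and 36.6 in library 5(2).

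**Figure D4:**
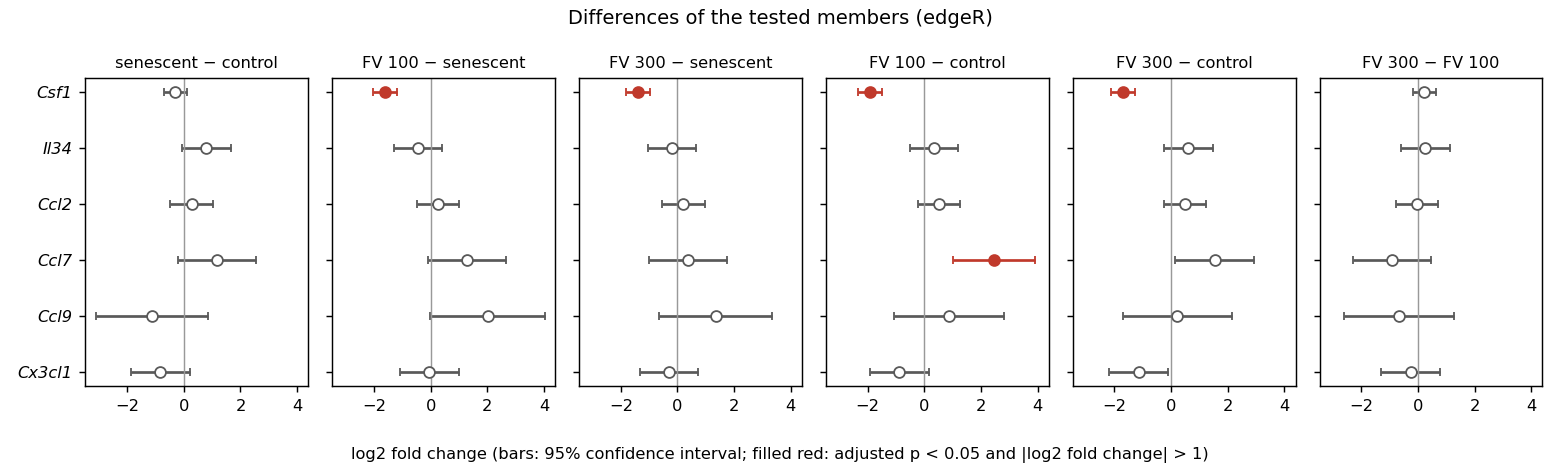
Log2 fold changes of the 6 tested members in the 6 comparisons (edgeR), with 95% confidence intervals as bars and called genes in filled red. Csf1 is called lower in 4 comparisons, between −1.92 and −1.40, and Ccl7 is called higher in 1, at 2.46.

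Over the family, no tested member was called in senescent against control MEFs, where 8.42% of all genes were called. There, 0 of 6 had an unadjusted p under 0.05, beside 25.4% of all genes tested, and DESeq2 called 0 members and 1826 of 27203 genes. Between the doses, 0 of 6 were called, with 0 at an unadjusted p under 0.05 (0.625% of all genes) and 0 by DESeq2, where 1 gene of all tested (0.00665%) was called. The median log2 fold change of the 6 was −0.01 in senescent against control MEFs, 0.10 at 100 µg/mL and 0.01 at 300 µg/mL against senescent MEFs, beside 0.07, −0.02 and 0.00 over all genes tested. The family thus did not move as one: 3 tested members lay above 0 and 3 below it in each of these comparisons. Against control MEFs 2 tested members, Ccl2 and Ccl7, lay above all control values at 100 µg/mL, where 24.2% of genes did, and 1, Csf1, lay below, where 24.1% did. At 300 µg/mL only Csf1 lay below all control values, where 21.1% of genes did.

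Among the genes whose levels over the 12 samples were most like those of Csf1, by the root mean square difference of centred log2 CPM among 12646 genes, were Maff (0.214), a small MAF transcription factor, and Adra2a (0.217), an α2-adrenergic receptor. This likeness includes the contrasts in which Csf1 fell, so their own changes are a description. Maff averaged 97.9 ± 5.6 CPM in senescent MEFs, 29.3 ± 6.48 at 100 µg/mL and 36.0 ± 6.43 at 300 µg/mL, and Adra2a 138 ± 29.8, 49.1 ± 2.41 and 52.1 ± 8.43. Both were lower in the treated than in the untreated groups, as Csf1 was. For Ccl7 the most alike were Calhm5 (0.178) and Eid2b (0.194), which list 1 transcript as Ccl7 does, and Prnp (0.218), which lists 2 and encodes the prion protein.

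**Figure D5:**
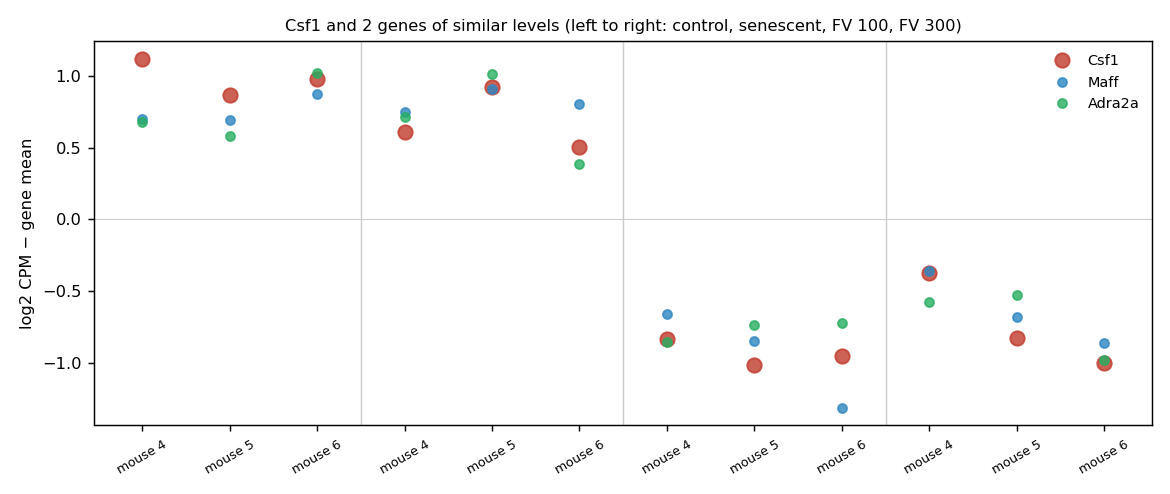
Centred log2 CPM of Csf1, Maff and Adra2a in the 12 samples, 3 mice in each group from left to right. All 3 genes lie above 0 in each control and senescent sample and below 0 in each treated sample.

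Of the 7 receptors listed for these ligands 3 were tested, and edgeR called 0 in any comparison. Csf1r, the receptor of CSF1 and IL-34, averaged 1.91 ± 1.25 CPM in control and 5.23 ± 3.69 in senescent MEFs, 3.54 ± 1.48 at 100 µg/mL and 2.48 ± 0.65 at 300 µg/mL, and its values overlapped between groups. Ptprz1, a second receptor of IL-34, was at 44.1 ± 11.04 CPM in control and 61.4 ± 47.1 in senescent MEFs, 58.7 ± 21.3 at 100 µg/mL and 72.3 ± 21.1 at 300 µg/mL. Ccr1, Ccr2 and Ccr3 reached at most 0.0626 CPM in any sample.

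The atypical receptors, which take up chemokines without signalling through G proteins, stood apart from them. Ackr3, which binds CXCL12, and Ackr4, which binds CCL19, CCL21 and CCL25 and so none of the members, were the 2 of 5 tested. Ackr3 averaged 2.45 ± 1.88 CPM in control MEFs, 5.57 ± 3.30 in senescent MEFs, 33.3 ± 9.41 at 100 µg/mL and 19.5 ± 11.2 at 300 µg/mL, and Ackr4 averaged 0.170 ± 0.295, 1.67 ± 0.296, 11.8 ± 7.65 and 16.1 ± 7.80. Both were called higher against control MEFs at both doses: Ackr3 with log2 fold changes of 3.75 (edgeR adjusted p 0.0026) and 2.98 (0.0093), and Ackr4 with 5.78 (8.33e-04) and 6.22 (6.05e-04). The size of the Ackr4 changes rests on the controls, which were at 0 outside control mouse 5. Ackr4 thus passed the filter on counts through the other groups, and its calls against control were set in part by the filter. Against senescent MEFs neither was called, with 2.57 (0.0593) and 1.80 (0.22) for Ackr3 and 2.83 (0.0709) and 3.27 (0.0672) for Ackr4. DESeq2 called Ackr3 at 100 µg/mL (0.0026) and Ackr4 at both doses (0.0031 and 6.6e-04). With no filter and with composition as a covariate, edgeR called both genes higher at both doses against senescent MEFs. The covariate gave 1.98 (0.0095) and 1.89 (0.0119) for Ackr3 and 2.97 (0.0392) and 3.21 (0.0346) for Ackr4. Senescent against control MEFs gave 1.18 (edgeR adjusted p 0.33) for Ackr3 and 2.95 (0.0509) for Ackr4. Of 15 alternatives, 7 called Ackr4 there and 1 called Ackr3.

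Of the 16 other CC chemokines, 4 were tested and 0 were called. Ccl6, a CCR1 ligand, was counted once in all control and once in all senescent samples, 24 times at 100 µg/mL and 27 times at 300 µg/mL. Ccl25 was at 1.51 to 4.27 CPM across control and senescent samples. Csf2 was not counted in any sample and Csf3 reached at most 0.297 CPM, so of the colony-stimulating factors Csf1 was the one expressed at a level that could be tested.

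Of the 9 enzymes listed as shedding or trimming these ligands 7 were tested, and Mmp12, a macrophage-type metalloelastase that cleaves CC chemokines, was the 1 called, higher against control MEFs at both doses (4.52, adjusted p 0.0105, and 3.79, adjusted p 0.0244, edgeR). It was at 0.142 ± 0.130 CPM in control MEFs, 1.43 ± 0.676 in senescent MEFs, 3.6 ± 4.28 at 100 µg/mL and 2.18 ± 1.61 at 300 µg/mL. Mmp12 had 17 counts over the control samples and so passed the filter on counts through the other groups. Its calls against control were thus set in part by the filter, and no rise is read from them. Senescent against control MEFs gave 3.19 (edgeR adjusted p 0.0798), which DESeq2 called (3.26, 0.0092), and the doses gave 1.33 (0.50) and 0.60 (0.84) against senescent MEFs. The call at 100 µg/mL was lost without mouse 6 of that dose (2.88, 0.0696), and that at 300 µg/mL without control mouse 4 (3.91, 0.0652) or mouse 6 of that dose (3.01, 0.0988), or with library 5(2) alone (3.14, 0.0699). Adam17 and Adam10, which shed CX3CL1 and membrane CSF1, were at 44.9 to 76.5 and 51.3 to 144 CPM in senescent MEFs and were not called. The 4 syndecans, heparan sulfate proteoglycans that hold chemokines at the cell surface, were all tested and not called.

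Fibroblast markers moved in both directions in the contrasts in which Csf1 fell, with 7 of 10 above 0 and 3 below at each dose. The 3 below included Vim, whose values fell without overlap at both doses (−0.87, edgeR adjusted p 0.0245, and −0.67, 0.0958), by less than a call requires. Of the 10, edgeR called 3 higher at 100 µg/mL against senescent MEFs, beside 1.1% of all genes tested. These were the matrix proteoglycans Dcn (2.33, adjusted p 0.0477) and Lum (3.29, 0.0399) and the collagen Col3a1 (1.38, 0.0164). At 300 µg/mL it called 1 higher, Col3a1 (1.17, 0.0489), beside 0.752% of all genes tested. Dcn and Lum were also called higher in senescent against control MEFs (3.95, 0.0022, and 3.22, 0.0375). Lum had 7 counts over the control samples and so passed the filter on counts through the other groups. Against control, Dcn, Lum and Col3a1 were called higher at both doses and Pdgfrb at 300 µg/mL (1.13, 0.0016). Col3a1 averaged 516 ± 192 CPM in control MEFs, 873 ± 41.9 in senescent MEFs, 2271 ± 439 at 100 µg/mL and 1963 ± 630 at 300 µg/mL. These calls against senescent MEFs were fragile: at 100 µg/mL Dcn and Lum lost theirs without any 1 of the 6 samples (0.0537 to 0.171) and with the mouse as a block (0.0869 and 0.0585), and Col3a1 without mouse 6 of that dose (0.0612). At 300 µg/mL Col3a1 lost its call with the block (0.0716) and without senescent mouse 4, 5 or 6 or mouse 5 or 6 of that dose (0.0714 to 0.233). In senescent against control MEFs, Lum lost its call with the block (0.0638), with library 5(2) alone (0.0582) and without control mouse 4, 5 or 6 or senescent mouse 4 or 6 (0.0553 to 0.0957).

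Markers of macrophages and endothelium were low but not constant, and the skeletal muscle markers Des and Acta1 were not low. The 16 macrophage markers summed to 2.16 to 6.24 CPM in control samples, 3.93 to 18.7 in senescent samples, 7.98 to 19.0 at 100 µg/mL and 4.54 to 15.4 at 300 µg/mL, with Fcgr1 at 0 in the control group and Aif1 at 0 at 300 µg/mL. In senescent against control MEFs all 11 tested lay above 0 (median 2.09 on the log2 scale), and edgeR called 0 while DESeq2 called Tyrobp (5.32, adjusted p 0.0376). Tyrobp and Fcer1g had 1 count each over the control samples, Ptprc had 8, Cx3cr1 9, Adgre1 16 and C1qa 18, so these passed the filter on counts through the other groups. Itgam, Cd68, Lyz2 and Laptm5 were at 0, 0, 0.094 and 0.255 CPM in their lowest control sample, so the control group alone did not carry them through it. For all of these markers a value or call above 0 against control was set in part by the filter, and no rise is read from it. At 100 and 300 µg/mL against senescent MEFs, where Csf1 fell, 6 of 11 lay above 0 at each dose, with medians of 0.01 and 0.12, and edgeR called 0. Against control MEFs, Lyz2 was called higher at both doses and Tyrobp at 300 µg/mL. The call of Lyz2 at 300 µg/mL had an adjusted p of 0.0528 and that of Tyrobp 0.0562 with the mouse as a block, and Tyrobp lost its call without any 1 of the 6 samples (0.0694 to 0.132). Lyz2 lost it without mouse 5 at 100 µg/mL (0.0579) and, at 300 µg/mL, without control mouse 4 or 6 or mouse 5 or 6 of that dose (0.0624 to 0.083). With library 5(2) alone, Lyz2 (0.0677) and Tyrobp (0.0775) were not called at 300 µg/mL. Against senescent MEFs, 1 of 4 tested endothelial markers, Tek, was called higher at 100 µg/mL (3.58, edgeR adjusted p 0.0446), a call lost with the mouse as a block (0.0525) and without any 1 of the 6 samples (0.0553 to 0.138). Tek was also called higher (4.05 and 3.79) and the muscle actin Acta1 lower (−1.44 and −1.77) against control MEFs at 100 and 300 µg/mL. With a lowest control sample at 0 CPM, Tek did not pass the filter on counts through the control group alone. The Acta1 call at 100 µg/mL was lost without any 1 control mouse (0.0765 to 0.156), and that at 300 µg/mL without control mouse 5 (0.0550). The 6 endothelial markers summed to 1.32 to 2.21 CPM in control, 1.47 to 3.30 in senescent, 5.95 to 11.7 at 100 µg/mL and 5.23 to 8.36 at 300 µg/mL, and the 7 skeletal muscle markers to 104 to 196, 149 to 359, 92.5 to 148 and 68.2 to 120 CPM. Of the endothelial markers, Tek alone averaged 0.481 CPM in senescent MEFs and 5.87 and 4.92 at 100 and 300 µg/mL. The mean of Kdr fell from 0.633 to 0.435 and 0.250 CPM. At both doses Cdh5 also averaged lower than in senescent MEFs, and Pecam1 and Emcn averaged higher. Among the muscle markers, Des averaged 52.8 to 142 CPM and Acta1 30.5 to 104 CPM over the groups. Myod1, Myog and Ckm had at most 16 counts in any group. Whether cells of these other types contributed to the levels of the members was not tested.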

How the data were processed

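Expected counts per gene were deposited by the authors, who mapped total RNA reads (a stranded kit) to GRCm39 with STAR 2.7.11b and quantified them with RSEM 1.3.1, without normalization. RSEM's TPM and FPKM values and its gene length, which is in bases and varies with the transcripts found, stand in the same deposited files. TPM was used for levels between genes only and FPKM was not used. FastQC 0.12.1 and Trimmomatic are named in the submitters' processing notes. Whether counting used strand is not given in the sources used here, so reads of the opposite-strand genes that overlap 2.71% of Csf1 exon bases and 10.8% of those of Cx3cl1 cannot be told apart from theirs. A table of all libraries held the same counts (largest difference 0), and 56310 of 57010 genes matched the annotation.

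Expected counts were rounded, the libraries 5(1) and 5(2) of control mouse 5 were summed to give 12 samples, and filterByExpr removed low genes (count minimum 10, total minimum 15). The 4 groups were fitted together with edgeR 4.0.16 (R 4.3.3), TMM factors and the quasi-likelihood test, with Benjamini-Hochberg adjustment over the 15034 genes of each of 6 comparisons. This test was checked on simulated data with known answers. Log2 CPM used a prior count of 2. CPM of single libraries, where 5(1) and 5(2) stand apart, was scaled over the 13 libraries. Members too low for this had an exact permutation test over samples. Depth was 22782536 to 31278750 counts in a library, and p-values measure only the spread between these samples.

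The members were listed by their role and not by a threshold on these data, but they, the gene lists and the thresholds were chosen with earlier results of these data known. The genes named are the members, list genes called in a comparison, and for each called member the 3 genes with the smallest root mean square difference of centred log2 CPM among tested genes with a mean of at least 1 CPM, of which 1 is not reported here. Where a listed gene that was not called is named, it was chosen after its values were seen. Replicates are numbered by mouse in the labels. The main fit used the groups alone, with no mouse term. Samples of 1 number were taken as paired only in the comparisons within mice and in the fit with the mouse as a block. Between samples of 1 number, the correlation of deviations from the group means had a median of −0.0063 over 18 pairs (−0.20 to 0.43) and exceeded 0.1 in 8.

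The results were recomputed with DESeq2 1.42.0, with RLE size factors, without the filter, in a fit of the 2 groups compared, with the mouse as a block, with 5(1) or 5(2) alone, with separate factors for single-transcript genes and with each sample left out. Library composition as a covariate was added after the data were seen. Promoter sequences come from RefSeq (GRCm38.p6).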

Additional observations from a re-analysis of the deposited data

How the results depend on the processing

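Of 504 refits of single members, 492 kept the call or its absence, 11 gained a call, 1 lost it and 0 were called in the opposite direction. The number of members called rose from 0 to 1 in senescent against control MEFs with separate factors for single-transcript genes and to 1 with composition as a covariate (Ccl7), and from 1 to 2 at 100 µg/mL against senescent MEFs with no filter (Ccl7, 1.39, adjusted p 0.0284). At 300 µg/mL against control it rose from 1 to 2 with DESeq2 (Ccl7, 1.58, 0.0473), to 3 with no filter (Ccl7, 1.54, 0.0038, and Cx3cl1, −1.14, 0.0482), to 2 with separate factors and to 3 with the covariate. At 100 µg/mL against control it rose from 2 to 3 with DESeq2 (Ccl8) and to 3 with the covariate (Cx3cl1, −1.47, 8.31e-04). Over all genes these settings moved the calls too: from 1266 to 1393 (separate factors) and 1747 (covariate) in senescent against control MEFs, from 405 to 800 (no filter) at 100 µg/mL against senescent MEFs, from 2704 to 3351 (DESeq2), 3057 (no filter), 2887 and 3415 at 300 µg/mL against control, and from 2955 to 3719 (DESeq2) and 3475 (covariate) at 100 µg/mL against control. Leaving out 1 sample at a time gave 1 to 2 members at 300 µg/mL against control (2 without control mouse 6, adding Cx3cl1) and 1 to 2 at 100 µg/mL against control (1 without mouse 4 at 100 µg/mL, losing Ccl7). The cause of these differences was not tested. With the mouse as a replicate block, in which samples of 1 number are paired, no member's call changed: Csf1 gave −1.62 (edgeR adjusted p 0.0032) and −1.41 (0.0074) against senescent MEFs at 100 and 300 µg/mL, and 1 member was called at each. Over all genes, 405 were called at 100 µg/mL and 246 at 300 µg/mL against senescent MEFs, with 835 and 641 by DESeq2, and as few as 136 without mouse 4 at 100 µg/mL and 46 without mouse 6 at 300 µg/mL. In senescent against control MEFs 1266 were called, with 699 when only the 2 groups were fitted. With RLE factors 174 of 321 called at 100 µg/mL against senescent MEFs were higher, beside 165 of 405 with TMM factors. Depth limits Ccl5 and Ccl8 (at most 14 counts) and Ccl9 (4 to 102).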

Other observations

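The deposited files give for each gene a length in bases that RSEM averages over the transcripts it found, and for members with several transcripts this length differed between libraries. For Csf1 it was 3376 in senescent mouse 6 and 2791 to 3068 in all other libraries, and that sample had the lowest senescent level on both scales, 556 TPM and 1577 CPM. For Cx3cl1 the length was 1400 in library 5(1) and 2185 in library 5(2) of control mouse 5, and ran from 1213 in mouse 4 at 300 µg/mL to 2274 in mouse 5 at 100 µg/mL. For Ccl9 it was 3006 in control mouse 6, in library 5(1) and in senescent mouse 5, the libraries with 4, 4 and 5 counts of it, and 498 to 2065 in the others.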
